A study of Mus musculus with 10 samples.

Results

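Nectins and nectin-like molecules are surface proteins of the immunoglobulin superfamily that hold neighboring cells together and are read by lymphocytes. PVR (CD155) and nectin-2 (CD112) on a target cell engage DNAM-1 (Cd226), which activates NK and T cells, and they are also bound by the inhibitory receptor TIGIT. CD96 binds PVR and, in the mouse, nectin-1, nectin-3 pairs with other nectins at cell contacts, and CADM1 (nectin-like 2) is the ligand of CRTAM, a receptor of activated NK and CD8+ T cells. The question addressed here was how the transcripts of these ligands and receptors stood in COX-competent and COX-deficient tumors, and in COX-deficient tumors grown without NK cells.

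The set was fixed by gene name and held 9 genes of the 45706 in the count table: 5 ligand genes (Pvr, Nectin1, Nectin2, Nectin3 and Cadm1) and 4 receptor genes (Cd226, Tigit, Cd96 and Crtam). They were measured in 10 whole tumors taken on day 4 after implantation of a Braf-mutant mouse melanoma line into C57BL/6 hosts aged 8 weeks. The line came from a model with an inducible Braf allele, Tyr::CreERT2 and loss of p16 INK4a, alleles that tumors of all 3 groups share, and its Ptgs1 and Ptgs2 genes, which encode COX-1 and COX-2, were disrupted with CRISPR/Cas9. There were 4 tumors of Ptgs+/+ cells, 3 of Ptgs-/- cells, and 3 of Ptgs-/- cells in hosts depleted of NK cells (NK-depleted Ptgs-/- tumors). Per the labels, depletion used anti-NK1.1 at 200 µg with anti-asialo-GM1 at 30 µg per mouse, given on days 0 and 2, whereas the study's methods give another schedule. Anti-NK1.1 and anti-asialo-GM1 also bind some cells other than NK cells, and no mock-treated or depleted Ptgs+/+ group was analysed here.

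In Ptgs-/- against Ptgs+/+ tumors, Pvr, Nectin2 and Nectin3 fell to 0.556 to 0.584 times their level in Ptgs+/+ tumors by the fitted fold, and Nectin1 and Cadm1 rose. The receptor genes Cd226, Cd96 and Crtam rose as well, Crtam by 10.8-fold in the mean with each Ptgs+/+ library raised to 3 counts. In this comparison 23.1% of all genes tested passed. In NK-depleted Ptgs-/- tumors, all 5 ligand genes passed the test against Ptgs+/+ tumors in these same directions, where 12.5% of all genes passed. Some of these calls were lost in alternative fits, that of Nectin1 in 11, of Cadm1 in 4 and of Pvr in 2. The 3 receptor genes tested did not pass there, with log2 fold changes of 0.40 to 1.05. Between Ptgs-/- tumors with and without NK cells, where 1.44% of all genes passed, Crtam was higher with NK cells and the other 7 genes tested did not pass.

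QuantSeq libraries read each transcript at its 3′ end, so that a count does not scale with gene length, and these held 8150556 to 12839174 counts each. Levels are given as CPM, the count scaled to the TMM-adjusted library size. A value of 3 or fewer counts in a library, 0.238 to 0.364 CPM, was treated as the detection floor, which covers counting error only. The test was edgeR's quasi-likelihood test over 14550 genes, and a gene passed at a Benjamini-Hochberg adjusted p at or under 0.05. Of the 9 genes, 8 entered the test and Tigit did not, as its counts were too low. Cd96 and Crtam entered it only through the Ptgs-/- group, where they were highest. The count of receptor genes that passed, and the p-values and ranks of Cd96 and Crtam, are therefore descriptions. Nothing in the sources used here says how many mice each tumor library came from, and p-values measure the spread between these samples.

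The labels were checked on the targeted genes first. In Ptgs+/+ tumors Ptgs2 was at 259 ± 112 CPM (SD, n = 4), against 42.3 ± 27.4 in Ptgs-/- tumors (SD, n = 3) and 44.8 ± 4.48 with NK cell depletion as well (SD, n = 3). Ptgs1 was likewise highest in Ptgs+/+ tumors. The edited positions are not given in the sources used here, so 3′ end reads show the levels of these transcripts and not the edit. Ncr1, a defining NK cell gene, was at 0 counts in all 3 NK-depleted libraries. Of the melanocytic markers, Mitf was present in every library at 17.4 to 32.7 CPM and Sox10 at 0.205 to 5.67 CPM, whereas Tyr, Tyrp1 and Mlana had at most 2 counts in any library. In whole tumors, fewer cells of a type and less RNA per cell cannot be told apart. Skeletal muscle genes set the NK-depleted libraries apart, with a sum over 8 markers of 2278 to 5480 CPM against 20.7 to 179 CPM in Ptgs+/+ and 109 to 412 CPM in Ptgs-/- tumors. The part of these genes in the values of the NK-depleted group was not tested. Label code EB042 marked Ptgs+/+ replicate 4 and Ptgs-/- replicate 3, and code EB046 the other 8 libraries.

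The promoters of Nectin2 and Nectin3 are shown because these ligand genes fell together, and that of Cd96 because it lies near Nectin3 on chromosome 16 and moved the other way. The windows are RefSeq promoters on GRCm38.p6, from 250 bases before to 50 bases after the annotated start, 5′ to 3′ on the gene's strand. Capitals mark a cyclic AMP response element (CRE, TGACGTCA) in Nectin2 and an interferon-gamma activated site (GAS, TTCNNNGAA) in Cd96. The CRE begins at base 40 from the RefSeq start used for Nectin2 and the GAS 79 bases before that used for Cd96. The gene spans given below for Nectin2 and Nectin3 begin upstream of these windows, at 19750483 and 46498525, so other starts exist.
Nectin2, minus strand, chr7:19749524-19749823: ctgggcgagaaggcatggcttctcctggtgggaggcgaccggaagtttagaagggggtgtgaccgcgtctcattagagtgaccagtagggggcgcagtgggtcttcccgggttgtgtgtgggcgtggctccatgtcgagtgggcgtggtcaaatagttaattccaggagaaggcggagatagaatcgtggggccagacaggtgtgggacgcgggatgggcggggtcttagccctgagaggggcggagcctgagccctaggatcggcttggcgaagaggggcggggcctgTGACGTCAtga
Nectin3, minus strand, chr16:46496918-46497217: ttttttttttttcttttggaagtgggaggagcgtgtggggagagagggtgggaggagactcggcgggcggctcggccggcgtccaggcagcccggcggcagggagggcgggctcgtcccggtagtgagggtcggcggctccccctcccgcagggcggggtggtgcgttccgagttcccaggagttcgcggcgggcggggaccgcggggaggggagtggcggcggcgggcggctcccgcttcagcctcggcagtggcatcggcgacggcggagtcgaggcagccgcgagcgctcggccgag
Cd96, minus strand, chr16:46120199-46120498: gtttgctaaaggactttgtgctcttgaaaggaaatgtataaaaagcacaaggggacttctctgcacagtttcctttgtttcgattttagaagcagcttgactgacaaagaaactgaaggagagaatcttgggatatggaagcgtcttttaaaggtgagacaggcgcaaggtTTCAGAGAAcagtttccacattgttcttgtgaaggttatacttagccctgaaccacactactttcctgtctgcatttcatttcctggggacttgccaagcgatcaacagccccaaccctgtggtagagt

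These motifs, an AP-1 site (TGANTCA) and the CRE core (TGACG) were searched on both strands. The full CRE was found in 1.79% of 32851 mouse promoter windows of this length, the GAS in 8.30%, the AP-1 site in 7.81% and the CRE core, which the full CRE contains, in 20.8%. The Nectin3 window held none of the 4. A match is a description of the letters and not a site of binding. The window of Tigit, at chr16:43664135-43664434, also held none of these motifs, and the promoters of the other 5 genes are not shown here.

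PVR is the ligand shared by DNAM-1, TIGIT and CD96. Its gene (Pvr, ENSMUSG00000040511) is protein-coding and lies on the minus strand of chromosome 7 of GRCm38, from 19903578 to 19921160. Pvr stood at 57.8, 46.8, 62.5 and 43.9 CPM in the 4 Ptgs+/+ tumors. It stood at 37.5, 27.3 and 27.8 CPM in the 3 Ptgs-/- tumors and at 33.8, 31.9 and 33.1 CPM in NK-depleted Ptgs-/- tumors. Every Ptgs-/- tumor, with or without NK cells, was below every Ptgs+/+ tumor. The log2 fold change against Ptgs+/+ tumors was -0.78 (SE 0.15, adjusted p = 0.00437, edgeR) in Ptgs-/- tumors and -0.68 (SE 0.15, adjusted p = 0.0139, edgeR) in NK-depleted Ptgs-/- tumors. The second call was lost without replicate 2 (adjusted p = 0.0585, edgeR) or replicate 3 (adjusted p = 0.0579, edgeR) of the NK-depleted group.

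Nectin-2, the other ligand of DNAM-1, also binds TIGIT. Nectin2 (ENSMUSG00000062300) is on the same strand of chromosome 7, from 19716644 to 19750483, and is separated from Pvr by 153094 bases that hold 6 protein-coding genes. Nectin2 stood at 69.2, 76.2, 86.7 and 63.3 CPM in Ptgs+/+ tumors. It stood at 44.4, 31.6 and 47.2 CPM in Ptgs-/- tumors and at 41.6, 40.3 and 41.8 CPM in NK-depleted Ptgs-/- tumors. The groups did not overlap between cell genotypes, and the 3 NK-depleted tumors lay between 40.3 and 41.8 CPM. Its log2 fold change was -0.85 (SE 0.15, adjusted p = 0.00236, edgeR) in Ptgs-/- and -0.84 (SE 0.15, adjusted p = 0.00389, edgeR) in NK-depleted Ptgs-/- against Ptgs+/+ tumors. Of the 6 genes between Nectin2 and Pvr, 3 were tested, with log2 fold changes of -0.59 to -0.07 in Ptgs-/- and -0.24 to 0.22 in NK-depleted Ptgs-/- against Ptgs+/+ tumors, and these 3 did not pass. Nectin2 shares 135 exonic bases with an antisense gene, Gm20512, which had 5 counts over all 10 libraries against 5612 for Nectin2.

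Nectin-3 is the partner that nectin-1 and nectin-2 bind across cell contacts. Nectin3 (ENSMUSG00000022656) lies on the minus strand of chromosome 16, from 46387706 to 46498525. Its level was 93.1, 84.1, 77.1 and 73.7 CPM in Ptgs+/+ tumors, 57.1, 41.5 and 44.4 CPM in Ptgs-/- tumors, and 53.4, 54.3 and 47.8 CPM in NK-depleted Ptgs-/- tumors. It was thus the most abundant ligand transcript in Ptgs+/+ tumors by mean, and every Ptgs-/- tumor was below every Ptgs+/+ tumor. For Nectin3 the log2 fold change was -0.78 (SE 0.13, adjusted p = 0.00173, edgeR) in Ptgs-/- and -0.66 (SE 0.13, adjusted p = 0.00697, edgeR) in NK-depleted Ptgs-/- against Ptgs+/+ tumors.

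Nectin-1 is a nectin of epithelial and neural contacts and a ligand of mouse CD96. Nectin1 (ENSMUSG00000032012, chromosome 9, plus strand, 43743984 to 43807461) moved the other way from Nectin2 and Nectin3. Its level was 17.1, 18.8, 12.1 and 18.0 CPM in Ptgs+/+ tumors, 25.1, 30.2 and 25.3 CPM in Ptgs-/- tumors, and 21.6, 26.0 and 24.1 CPM in NK-depleted Ptgs-/- tumors. Every Ptgs-/- tumor was above every Ptgs+/+ tumor. The log2 fold change was 0.71 (SE 0.16, adjusted p = 0.00821, edgeR) in Ptgs-/- against Ptgs+/+ tumors. With NK cell depletion it was 0.54 (SE 0.16, adjusted p = 0.0461, edgeR). This call was lost with the label code as a term (adjusted p = 0.0730, edgeR) and within code EB046 (adjusted p = 0.0706, edgeR). It was also lost in 8 of the 10 fits that left out a library, with adjusted p of 0.0533 to 0.160. Over all refits, it was lost in 11 and kept in 9.

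CADM1 is the ligand of CRTAM and is also known from mouse type 1 dendritic cells. Cadm1 (ENSMUSG00000032076, chromosome 9, plus strand, 47530173 to 47857637) stood at 30.2, 35.2, 23.2 and 29.6 CPM in Ptgs+/+ tumors. It stood at 61.2, 34.1 and 39.7 CPM in Ptgs-/- tumors and at 52.1, 52.3 and 48.1 CPM in NK-depleted Ptgs-/- tumors. Ptgs-/- replicate 2 fell within the range of Ptgs+/+ tumors, and the 3 NK-depleted tumors were all above it. For Cadm1 the log2 fold change was 0.61 (SE 0.19, adjusted p = 0.0401, edgeR) in Ptgs-/- and 0.78 (SE 0.19, adjusted p = 0.0199, edgeR) in NK-depleted Ptgs-/- against Ptgs+/+ tumors. Without Ptgs-/- replicate 1 the first was 0.32 (adjusted p = 0.172, edgeR), and it also missed the threshold with the label code as a term (adjusted p = 0.0506, edgeR). Over all refits, the first missed the threshold in 9, with adjusted p of 0.0506 to 0.172 (edgeR), and kept it in 11. The second missed it in 4 of 10 fits that left out a library, with adjusted p of 0.0532 to 0.0687.

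Type 1 dendritic cell genes, like Cadm1, were higher in both Ptgs-/- groups than in Ptgs+/+ tumors. Among Ptgs-/- tumors, replicate 1 had the highest Cadm1, at 61.2 CPM, and the lowest summed level of the 8 markers, at 234 CPM. Mean Cadm1 was 45.0 CPM in Ptgs-/- and 50.8 CPM in NK-depleted Ptgs-/- tumors, and the mean sum was 324 and 230 CPM. Between these groups, where 1.44% of all genes passed, Cadm1 did not pass (adjusted p = 0.795, edgeR). By edgeR, 0 of the 8 markers passed there. Of 8 markers, 6 rose in Ptgs-/- and 5 in NK-depleted Ptgs-/- against Ptgs+/+ tumors, where 12.1% and 6.63% of all genes were called higher, and their summed level was 118 to 123 CPM in Ptgs+/+, 234 to 375 CPM in Ptgs-/- and 208 to 243 CPM in NK-depleted Ptgs-/- tumors. Of 8 fibroblast genes, 5 rose in Ptgs-/- tumors, beside the same 12.1% of all genes, and 1, Col1a2, rose in NK-depleted Ptgs-/- tumors, beside 6.63%. Pdgfrb had log2 fold changes of -0.46 and -0.25 in these comparisons and did not pass. The fibroblast sums were 8035 to 10668 CPM in Ptgs+/+, 13297 to 16946 CPM in Ptgs-/- and 11033 to 13733 CPM in NK-depleted Ptgs-/- tumors. The part of either cell type in the values of Cadm1 and Nectin1 was not tested. Of 8 endothelial genes, 2 fell by edgeR in Ptgs-/- against Ptgs+/+ tumors, and 4 passed by DESeq2. In that comparison 1597 of the 14550 genes tested were lower by edgeR. The median log2 fold change of the 8 was -0.75, with 1 of the 8 above 0. In NK-depleted Ptgs-/- against Ptgs+/+ tumors, 0 of the 8 passed by edgeR or DESeq2, where 5.87% of all genes were lower by edgeR. There 2 had an unadjusted p under 0.05 by edgeR, and the median log2 fold change was -0.32, with 1 of the 8 above 0. The endothelial sums over the 3 groups were 370 to 419 CPM, 142 to 328 CPM and 242 to 351 CPM. Neutrophil genes went both ways: 6 of 9 tested fell in Ptgs-/- tumors, where 23.1% of all genes passed in either direction, and in NK-depleted Ptgs-/- tumors, where 12.5% did, 4 fell and 1, Retnlg, rose with a log2 fold change of 1.77 (SE 0.40, adjusted p = 0.0139, edgeR). Csf3r, the receptor for granulocyte colony-stimulating factor, had log2 fold changes of 0.61 and 0.42 and did not pass. The neutrophil sums over 10 markers were 297 to 396 CPM, 89.1 to 133 CPM and 141 to 178 CPM. The part of endothelial cells and neutrophils in the values of Pvr, Nectin2 and Nectin3 was not tested.

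**Figure D1:**
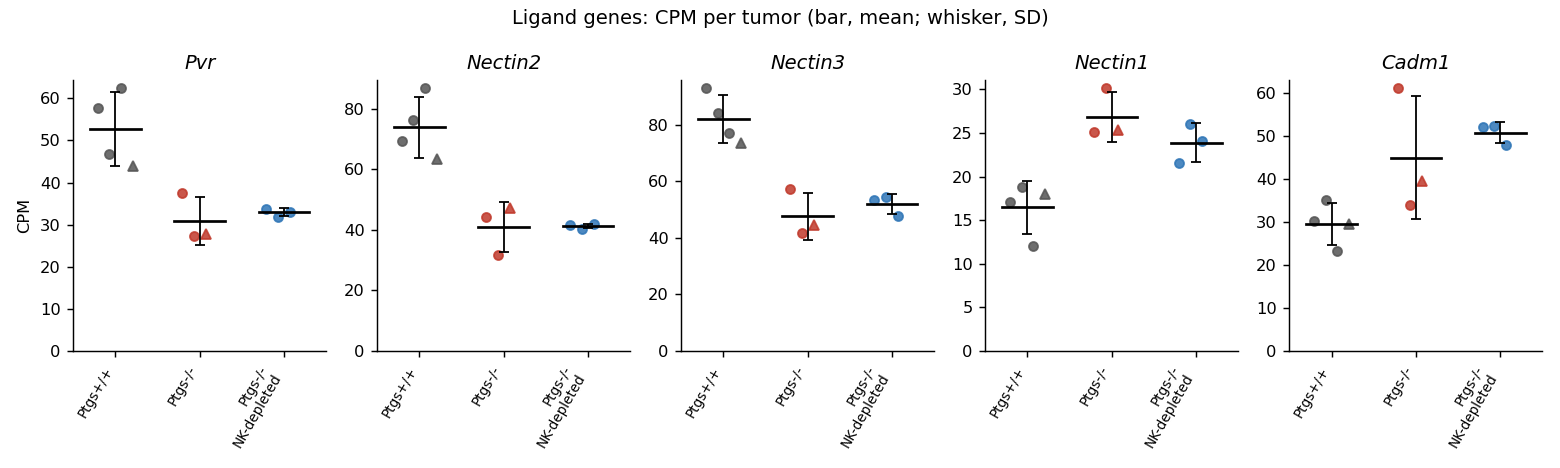
CPM of the 5 ligand genes (vertical axes, from 0, one scale per gene) in each tumor by group; each symbol is a tumor, circles carry label code EB046 and triangles EB042, horizontal bars are means and whiskers SD. Pvr, Nectin2 and Nectin3 were lower and Nectin1 higher in every Ptgs-/- tumor than in every Ptgs+/+ tumor, whereas for Cadm1 Ptgs-/- replicate 2, at 34.1 CPM, lay under the highest Ptgs+/+ tumor, at 35.2 CPM.

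Ptgs+/+ tumors held 254.6 ± 17.6 CPM (SD, n = 4) of the 5 ligand genes in sum, Ptgs-/- tumors 191.4 ± 30.9 (SD, n = 3) and NK-depleted Ptgs-/- tumors 200.7 ± 5.25 (SD, n = 3). The composition of the sum shifted with the genotype of the tumor cells. Of this sum, Nectin1 made up 6.52 ± 1.41% in the 4 Ptgs+/+ tumors, 14.4 ± 3.64% in the 3 Ptgs-/- tumors and 11.9 ± 1.10% after NK cell depletion (SD, same n). For Cadm1 these shares were 11.6 ± 2.07%, 23.1 ± 3.53% and 25.3 ± 0.568%. Nectin3 went from 32.2 ± 2.18% in Ptgs+/+ tumors to 24.9 ± 0.710% in Ptgs-/- tumors and 25.8 ± 1.11% in NK-depleted ones. The shares of Nectin1 and Cadm1 in every Ptgs-/- tumor were above those in every Ptgs+/+ tumor, and those of Pvr and Nectin3 below. The share of Nectin2 in Ptgs-/- replicate 3, at 25.6%, was just under the lowest Ptgs+/+ value of 25.9%. These shares follow from the gene levels above and were not tested.

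**Figure D2:**
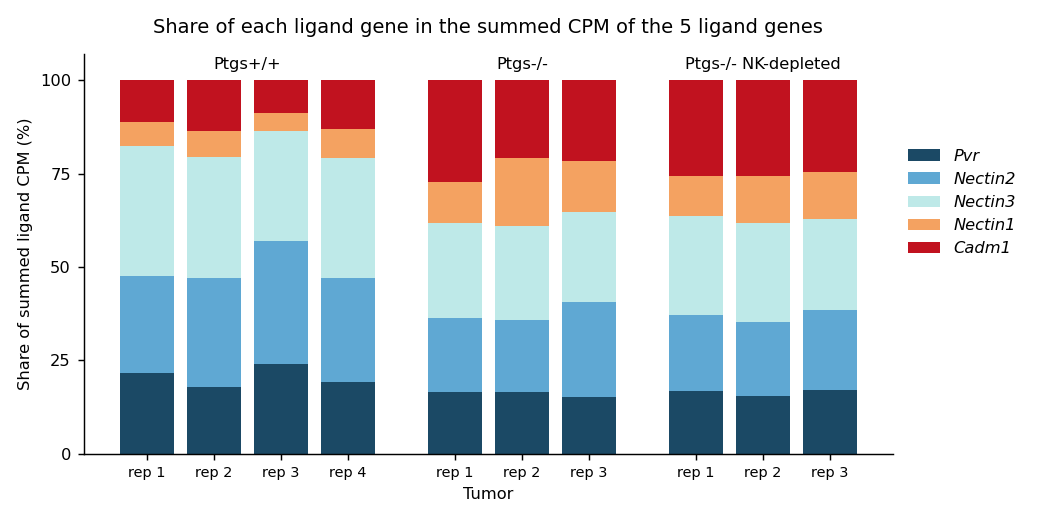
Share of each ligand gene in the summed CPM of the 5 ligand genes (vertical axis, percent) for each tumor (bars). Nectin1 and Cadm1 together take a wider band in the 6 Ptgs-/- tumors than in the 4 Ptgs+/+ tumors, at the cost of Pvr, Nectin2 and Nectin3.

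Receptor transcripts were lower than ligand transcripts in every tumor, with a highest value of 7.78 CPM against a lowest ligand value of 12.1 CPM. Cd226 encodes DNAM-1, the activating receptor for PVR and nectin-2 on NK and T cells. The gene (ENSMUSG00000034028) lies on the plus strand of chromosome 18, from 89176967 to 89272229. Cd226 had 23, 6, 12 and 6 counts in Ptgs+/+ tumors, which is 1.83, 0.643, 1.08 and 0.628 CPM. It had 25, 76 and 69 counts in Ptgs-/- tumors (3.03, 7.78 and 6.06 CPM) and 17, 20 and 31 in NK-depleted Ptgs-/- tumors (1.82, 1.86 and 3.03 CPM). Ptgs-/- tumors were all above Ptgs+/+ tumors, and the lowest of them, replicate 1, was level with the highest tumor of the NK-depleted group. In the test, the log2 fold change was 2.38 (SE 0.41, adjusted p = 0.00211, edgeR) in Ptgs-/- against Ptgs+/+ tumors. Against NK-depleted Ptgs-/- tumors it was 1.33 (95% confidence interval 0.41 to 2.25, adjusted p = 0.224, edgeR), and for NK-depleted Ptgs-/- against Ptgs+/+ tumors 1.05 (0.08 to 2.02, adjusted p = 0.150, edgeR), neither of which passed.

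CRTAM is induced on NK and CD8+ T cells when they are activated. Crtam (ENSMUSG00000032021) lies on the minus strand of chromosome 9, from 40969691 to 41004628. Crtam had 3, 0, 1 and 2 counts in Ptgs+/+ tumors, 17, 37 and 39 in Ptgs-/- tumors and 1, 6 and 2 in NK-depleted Ptgs-/- tumors. The Ptgs-/- tumors, at 2.06, 3.79 and 3.43 CPM, did not overlap with either other group, all 4 Ptgs+/+ libraries were at or under the floor, and 1 of 3 NK-depleted libraries was above it. Against Ptgs+/+ tumors with each library raised to the floor of 3 counts, mean Crtam was 10.8-fold higher in Ptgs-/- tumors, a value that leaves out the spread between tumors. The test gave an adjusted p of 0.000423 (edgeR), and 4 of the 14550 genes had a larger fitted rise. Both describe a gene that entered the test through this group. Against NK-depleted Ptgs-/- tumors the log2 fold change was 3.35 (SE 0.55, adjusted p = 0.0101, edgeR). This call was lost within code EB046 (adjusted p = 0.0753, edgeR), without Ptgs-/- replicate 2 (adjusted p = 0.0519, edgeR) and without NK-depleted replicate 3 (adjusted p = 0.0695, edgeR), while the log2 fold change stayed at 3.15 or above in these fits. Over the summed libraries of a group, 93 counts gave 3.16 CPM (exact Poisson 95% interval 2.55 to 3.87) in Ptgs-/- and 9 counts gave 0.297 CPM (0.136 to 0.564) in NK-depleted Ptgs-/- tumors. Such intervals cover counting error only and not the spread between tumors.

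CD96 binds PVR and nectin-1 and, in the mouse, restrains NK cells. Cd96 (ENSMUSG00000022657, chromosome 16, minus strand, 46035657 to 46120251) is 267454 bases from Nectin3, with 1 protein-coding gene in between. Cd96 had 5, 3, 7 and 5 counts in Ptgs+/+ tumors, 11, 12 and 24 in Ptgs-/- tumors and 5, 9 and 5 in NK-depleted Ptgs-/- tumors. On the CPM scale the Ptgs-/- tumors, at 1.33, 1.23 and 2.11, were above every tumor of the other groups, whose highest value was 0.836. The log2 fold change was 1.72 (SE 0.37, adjusted p = 0.00722, edgeR) against Ptgs+/+ tumors, which missed the threshold within code EB046 (adjusted p = 0.0595, edgeR). Against NK-depleted Ptgs-/- tumors it was 1.32 (95% confidence interval 0.45 to 2.18, adjusted p = 0.191, edgeR) and did not pass. The gene that lies between Cd96 and Nectin3 had log2 fold changes of -0.04 and -0.11 against Ptgs+/+ tumors in Ptgs-/- and NK-depleted Ptgs-/- tumors.

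TIGIT is the inhibitory receptor for PVR. Tigit (ENSMUSG00000071552, chromosome 16, minus strand, 43648867 to 43664146) had 3, 1, 8 and 3 counts in Ptgs+/+ tumors, 2, 1 and 1 in Ptgs-/- tumors and 0 in each of the 3 NK-depleted tumors. Only Ptgs+/+ replicate 3 was above the floor, and every NK-depleted tumor was below every Ptgs+/+ tumor. The increase measured for the other receptor genes in Ptgs-/- tumors was not seen for Tigit. Over the summed libraries the exact Poisson 95% interval was 0.197 to 0.581 CPM in Ptgs+/+, 0.0371 to 0.348 CPM in Ptgs-/- and up to 0.122 CPM in NK-depleted Ptgs-/- tumors. The first and the last of these did not overlap. The intervals cover counting error only and not the spread between tumors, and 8 of the 15 Ptgs+/+ counts came from replicate 3. A two-sided exact permutation test of CPM gave p = 0.171 for Ptgs-/- against Ptgs+/+ tumors. By the same exact test, p = 0.1 for Ptgs-/- against NK-depleted Ptgs-/- and p = 0.0571 for NK-depleted Ptgs-/- against Ptgs+/+ tumors, each the smallest p that the design allows. In the fit of all genes with at least 1 count, Tigit passed as lower in NK-depleted Ptgs-/- than in Ptgs+/+ tumors (adjusted p = 0.0373, edgeR), where 7.32% of the 27098 genes in that fit passed, and did not pass in Ptgs-/- against Ptgs+/+ tumors (adjusted p = 0.482, edgeR) or between the Ptgs-/- groups (adjusted p = 0.577, edgeR). No fold is given, as 6 of the 7 libraries of the comparison that passed were at or under the floor.

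**Figure D3:**
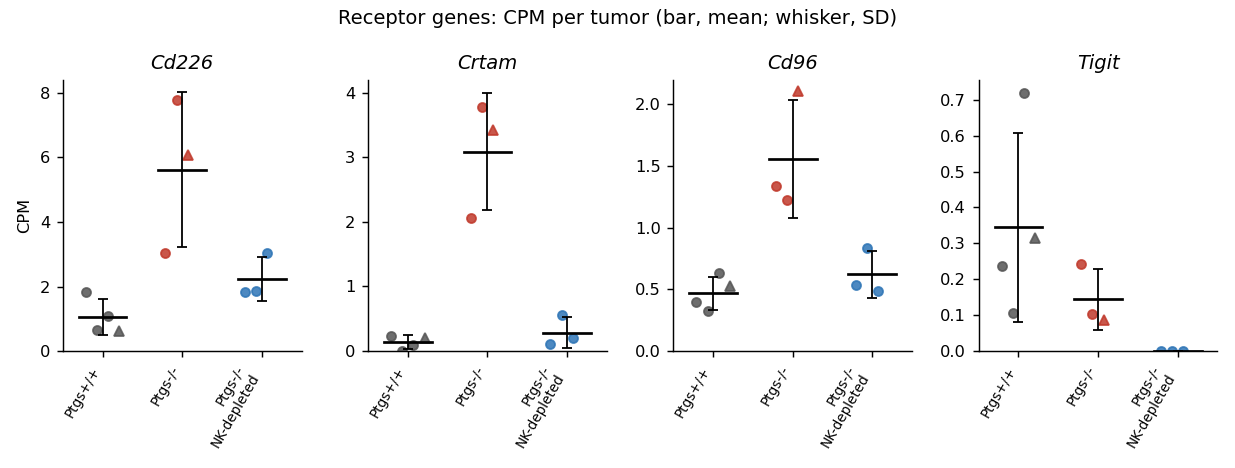
CPM of the 4 receptor genes (vertical axes, from 0, one scale per gene) in each tumor by group; symbols as for the ligands, horizontal bars are means and whiskers SD. For Crtam and Cd96 the 3 Ptgs-/- tumors are above all others, for Cd226 they are above the 4 Ptgs+/+ tumors, and Tigit was at 0 in the 3 NK-depleted tumors.

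Receptors that share ligands were set against Cd226 within each library, as the log2 ratio of (count + 0.5), which does not depend on library size. For Crtam to Cd226 it averaged -2.72 ± 0.979 across Ptgs+/+ (SD, n = 4), -0.80 ± 0.243 across Ptgs-/- (SD, n = 3) and -2.95 ± 1.12 across NK-depleted Ptgs-/- tumors (SD, n = 3), and Ptgs-/- tumors overlapped with neither group. For Tigit to Cd226 the values were -1.58 ± 1.03, -4.85 ± 1.30 and -5.49 ± 0.439 (SD, same n), so that Ptgs+/+ tumors were above all others. For Cd96 to Cd226 they were -0.99 ± 0.787, -1.76 ± 0.764 and -1.77 ± 0.709, and the groups overlapped. None of the 9 tests of these ratios passed, with p from 0.0571 and Benjamini-Hochberg adjusted p from 0.171 (two-sided exact permutation test), where 4 against 3 tumors allow no p under 0.0571 and 3 against 3 none under 0.1. With Tigit at or under 3 counts in 9 of 10 libraries, its ratio moves mostly with Cd226.

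Marker genes of NK cells and T cells, which carry these receptors, rose with them in Ptgs-/- against Ptgs+/+ tumors. NK cell markers did not move with them in NK-depleted Ptgs-/- against Ptgs+/+ tumors. All 9 T cell markers tested had log2 fold changes above 0 in each of the 3 comparisons, as Cd226, Crtam and Cd96 did. Of 11 NK cell markers tested, 9 rose in Ptgs-/- against Ptgs+/+ tumors, where 12.1% of all genes rose, and 10 were higher than in NK-depleted Ptgs-/- tumors, where 0.515% of all genes were. In NK-depleted Ptgs-/- against Ptgs+/+ tumors 5 of the 11 were lower, beside 5.87% of all genes, and 0 of the 11 had a log2 fold change above 0 by edgeR, whereas Cd226, Crtam and Cd96 stood at 1.05, 1.01 and 0.40 and did not pass. The summed level of 12 NK cell markers was 24.6 to 49.6 CPM in Ptgs+/+, 110 to 222 CPM in Ptgs-/- and 10.7 to 11.6 CPM in NK-depleted Ptgs-/- tumors. T cell genes were also higher, with 8 of 9 tested in Ptgs-/- and 3 of 9 in NK-depleted Ptgs-/- against Ptgs+/+ tumors, where 12.1% and 6.63% of all genes were higher, and with sums over 10 markers of 5.56 to 7.74 CPM, 16.4 to 40.0 CPM and 12.7 to 19.8 CPM. Cd226 stood at a mean of 2.24 CPM in NK-depleted Ptgs-/- tumors, beside 1.04 CPM in Ptgs+/+ and 5.62 CPM in Ptgs-/- tumors. Between the Ptgs-/- groups 0 of the 9 T cell genes passed by edgeR or DESeq2, with 4 at an unadjusted p under 0.05. The part of either cell type in the receptor levels was not tested.

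Counted over the 3 comparisons, which share groups of tumors and are not independent, the genes behaved as follows. In Ptgs-/- against Ptgs+/+ tumors, all 8 tested genes passed, 5 higher and 3 lower, where 23.1% of all genes tested passed, 12.1% of all genes higher and 1597 of the 14550 genes lower. With the study's added bound of 1.5 on the size of the log2 fold change, the 3 tested receptor genes passed, against 3.14% of all genes higher and 1.01% lower, and the 5 ligand genes did not. All Ptgs-/- libraries were above all Ptgs+/+ libraries for 4 of the 9 genes and below for 3, where 15.4% and 15.2% of all genes separated in this way. Of the 5 ligand genes 3 were lower and 2 higher, so that their median log2 fold change of -0.78, beside -0.01 for all genes tested, is not a shared fall.

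In Ptgs-/- tumors with against without NK cells, Crtam passed and the other 7 tested genes did not, where 1.44% of all genes passed, 0.515% higher and 0.921% lower. Crtam also met the bound of 1.5, as 0.323% of all genes did when higher and 0.825% when lower. The 5 ligand genes had log2 fold changes of -0.18 to 0.17, and none passed by edgeR, by DESeq2 or at an unadjusted p under 0.05. The widest 95% confidence interval among them, that of Cadm1, ran from -0.62 to 0.27, so that changes of more than 1.54-fold lie outside all 5 intervals. All 3 tested receptor genes had an unadjusted p under 0.05, and of these only Crtam passed the adjustment by edgeR and by DESeq2. Libraries with NK cells were all higher for Tigit, at 1 or 2 counts against 0, and for Cd96 and Crtam, where 9.31% of all genes separated in this direction and 8.32% in the other.

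In NK-depleted Ptgs-/- against Ptgs+/+ tumors, 5 of 8 tested genes passed, 2 higher and 3 lower, all of them ligands, where 12.5% of all genes passed, 6.63% higher and 5.87% lower. At the bound of 1.5 none of the 8 passed by edgeR, where 2.01% of all genes did when higher and 0.701% when lower. NK-depleted tumors were all above Ptgs+/+ tumors for Nectin1 and Cadm1 and all below for Pvr, Nectin2, Nectin3 and Tigit, where 13.6% and 13.1% of all genes separated. The receptor genes had log2 fold changes of 0.40 for Cd96, 1.01 for Crtam and 1.05 for Cd226. None passed by edgeR or DESeq2, and Cd226 alone had an unadjusted p under 0.05 (edgeR's unadjusted p = 0.0356).

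**Figure D4:**
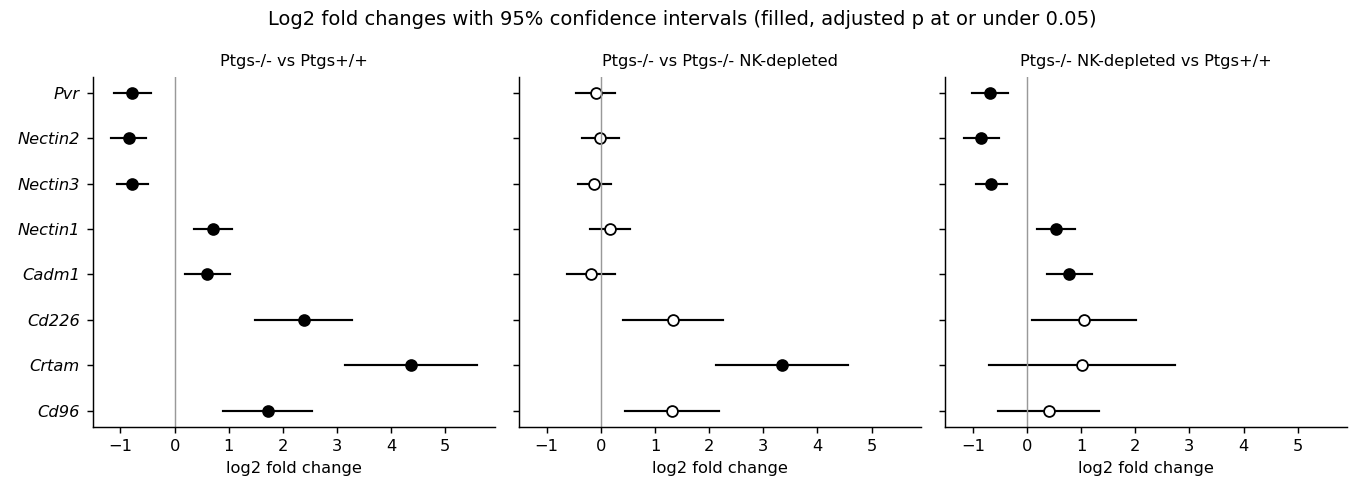
Log2 fold changes (horizontal axis) of the 8 tested genes in the 3 comparisons (panels), with 95% confidence intervals; filled symbols passed at an adjusted p at or under 0.05. The ligand genes lie on the same side of 0 in the left and right panels and near 0 in the middle one, where Crtam, at 3.35, is the only filled symbol.

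The libraries of code EB042 gave the same order as the other code for the ligands and for the receptors that rose. Ptgs+/+ replicate 4 and Ptgs-/- replicate 3 stood at 43.9 and 27.8 CPM for Pvr, 63.3 and 47.2 CPM for Nectin2 and 18.0 and 25.3 CPM for Nectin1. For Cd226 they had 6 and 69 counts, for Crtam 2 and 39, and for Cd96 5 and 24. This code holds 1 tumor of each of 2 groups, so there is no test within it. Within code EB046, the log2 fold changes in Ptgs-/- against Ptgs+/+ tumors were -0.75 for Pvr, -0.99 for Nectin2, -0.75 for Nectin3 and 0.83 for Nectin1, all of which passed. Cd226, at 2.19, and Crtam, at 4.52, passed as well, whereas Cadm1, at 0.72, and Cd96, at 1.51, did not.

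Other nectins and nectin-like genes are less tied to lymphocyte receptors. Nectin4 and Cadm2 to Cadm4 were tested, and Pvrig was not matched in the count table. Nectin4, an epithelial nectin that TIGIT can also bind, rose in Ptgs-/- against Ptgs+/+ tumors with a log2 fold change of 0.67 (SE 0.20, adjusted p = 0.0348, edgeR), and the other 3 did not pass. In the other comparisons none of the 4 passed by edgeR or DESeq2, with 1 at an unadjusted p under 0.05 in NK-depleted Ptgs-/- against Ptgs+/+ tumors and 0 between the Ptgs-/- groups.

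Inside the cell, nectins bind afadin and are linked to the cadherin and actin machinery of adherens junctions. Of 16 such partner genes tested, 4 fell in Ptgs-/- against Ptgs+/+ tumors and the other 12 did not pass by edgeR. In that comparison 1597 of the 14550 genes tested were lower. The median log2 fold change of the 16 was -0.18 beside -0.01 for all genes, with 3 of the 16 above 0. Afdn, the gene of afadin itself, fell by 0.44 on the log2 scale (SE 0.11, adjusted p = 0.0139, edgeR). Ssx2ip, which encodes an afadin- and actinin-binding protein, fell by 0.88, Actn1, an actinin, by 0.84 and Epb41l3, a binding partner of CADM1, by 0.69. In NK-depleted Ptgs-/- against Ptgs+/+ tumors, 2 of the 16 fell, Epb41l3 by 0.78 and Ssx2ip by 0.76 on the log2 scale. Of all genes, 12.5% passed there in either direction and 5.87% were lower. Between the Ptgs-/- groups none of the 16 passed by edgeR or DESeq2 or had an unadjusted p under 0.05.

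On the lymphocyte side, DNAM-1 signals together with the integrin LFA-1 and kinases of the Src family. Of 14 such genes tested, 12 rose in Ptgs-/- against Ptgs+/+ tumors, where 12.1% of all genes rose, and the other 2 did not pass, with a median log2 fold change of 0.87 beside -0.01 for all genes. Lat, an adaptor of T and NK cells, rose by 2.39, Lck, a Src-family kinase, by 2.36, Itgb2, the beta chain of LFA-1, by 1.15 and Fyn, a Src-family kinase that phosphorylates DNAM-1, by 0.75 on the log2 scale. In NK-depleted Ptgs-/- against Ptgs+/+ tumors, 4 of the 14 rose, beside 6.63% of all genes, with log2 fold changes of 0.75 for Itgb2, 0.55 for Fyn, 1.37 for Prkcq and 1.42 for Lat. With against without NK cells, Lck was higher by a log2 fold change of 2.13 (SE 0.32, adjusted p = 0.00599, edgeR), and the other 13 did not pass by edgeR. By DESeq2 and by the likelihood ratio test 2 of the 14 passed, Lck and Itgal, the alpha chain of LFA-1, and 7 had an unadjusted p under 0.05 by edgeR. Many of these genes are expressed throughout leukocytes, and macrophage genes rose in Ptgs-/- tumors too, 9 of 12 markers tested where 12.1% of all genes rose, with sums of 3394 to 4182 CPM in Ptgs+/+ and 5501 to 8043 CPM in Ptgs-/- tumors.

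The genes most alike in pattern were those with the smallest root mean square difference of centered log2 CPM over the 10 libraries, among the 14549 other genes tested. Nearest to Nectin3, whose own root mean square deviation was 0.38, was Mapk6 at 0.07, followed by Ptgs1 at 0.09. Nearest to Nectin1 was Il10rb, a chain of the IL-10 receptor, at 0.07, followed by Efhd2 at 0.09 and Sirpa, a myeloid receptor, at 0.10. For Pvr the nearest was Mllt3 at 0.10, for Nectin2 Foxc1 at 0.12 and for Cadm1 Sdc2, a syndecan, at 0.10. The receptors had wider distances, as their low counts give. Nearest to Crtam, with a deviation of 1.52, were Klrb1f, an NK cell lectin-like receptor, at 0.40, Ms4a4b, a gene of T and NK cells, at 0.49 and the chemokine gene Ccl5 at 0.50. For Cd226 these were Sp110 at 0.27 and Zbp1 at 0.33, both interferon-inducible genes, and for Cd96 Agap2 at 0.25. The distance is a description over libraries that share their groups.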

How the data were processed

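The authors sequenced QuantSeq 3′ libraries of 10 tumors, trimmed them, aligned to GRCm38 with STAR and assigned reads to Ensembl version 86 genes by featureCounts. They deposited raw counts per gene, with no normalization and a separate column per sample. The strand setting and the treatment of reads that map to several genes are not given in the sources used here. Groups came from the labels. Genes were named and placed with GENCODE M21, which named 45143 of 45706 identifiers.

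Counts were tested with edgeR 4.0.16 (R 4.3.3): filterByExpr, which kept 14550 genes, TMM factors and the quasi-likelihood test with the 3 groups in 1 model of all 10 libraries. Standard errors are the log2 fold change over the square root of F. Alternatives were DESeq2 1.42.0, a likelihood ratio test, other scalings and filters, the label code as a term, code EB046 alone, each library left out, a block for the label number and a fit of the 2 groups compared. On simulated data for Ptgs-/- against Ptgs+/+ tumors (14353 genes, 200 changed by a log2 fold change of 2), 195 changed and 16 unchanged genes were called. Replicates differed by a chi-square of 7.41 to 30.1 per degree of freedom, so none was a library deposited more than once.

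The 9 genes and all lists were chosen with earlier results of these data known. Named genes are the 9, up to 4 genes of a pathway list with the smallest p among those that passed, marker genes used as checks, and genes nearest in pattern.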

Additional observations from a re-analysis of the deposited data

How the results depend on the processing

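Of 478 refits of a gene's log2 fold change, 440 kept its direction and its side of the threshold, 30 lost a call and 8 changed sign. The sign changes were all between the Ptgs-/- groups, at values near 0: 0.00485 for Nectin2 with RLE size factors, 0.0223 with library size alone and 0.0112 with 10 counts in 3 libraries, and with libraries left out -0.10 to 0.17 for Nectin2, -0.26 to 0.00267 for Pvr and -0.46 to 0.00432 for Cadm1. Under the study's threshold 3 of the genes passed in Ptgs-/- against Ptgs+/+ tumors and 0 in NK-depleted Ptgs-/- against Ptgs+/+ tumors. Between the Ptgs-/- groups the count of genes passing was 0 within code EB046 and 0 to 1 with a library left out. For NK-depleted Ptgs-/- against Ptgs+/+ tumors it was 2 to 5 with a library left out, the lowest values without NK-depleted replicates 2 and 3, which leaves fewer tumors in that group. The Cd96 to Cd226 ratio between the Ptgs-/- groups, 0.01, became -0.0323 with a pseudocount of 1, -0.12 within code EB046 and -0.37 to 0.44 with a library left out. The Crtam to Cd226 ratio of NK-depleted Ptgs-/- against Ptgs+/+ tumors, -0.23, became 0.22 within code EB046 and -0.88 to 0.22 with a library left out. The Tigit to Cd226 ratio between the Ptgs-/- groups, 0.64, became -0.12 to 1.05 with a library left out. The cause of these changes was not tested.

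Label numbers did not pair the samples: same-numbered libraries of different groups correlated by -0.404 to 0.482 in their deviations from the group means. With the label number as a block, 8, 1 and 5 genes passed in the 3 comparisons, and no call of the 8 tested genes changed. Depth limits the receptors: Crtam had 6 or fewer counts in 7 of 10 libraries and Tigit 8 or fewer in all 10, which kept Tigit out of the filtered fit. Without a filter 6 genes passed in NK-depleted Ptgs-/- against Ptgs+/+ tumors, the sixth being Tigit (adjusted p = 0.0373, edgeR).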
